A study of Nomascus leucogenys and Hoolock leuconedys and Nomascus gabriellae with 23 samples.

Results

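LAVA insertions of hoolock gibbons were set against those of Hylobates gibbons, animal by animal. LAVA is a composite retrotransposon of gibbons, put together from pieces of L1, Alu and SVA-type repeats around a block of tandem repeats. The study called LAVA insertions by whole-genome sequencing of blood DNA in 23 gibbons of 4 genera, and the deposited table lists 5490 sites. The 3 animals of Hoolock leuconedys were compared with 5 Hylobates animals, of which 2 were H. moloch and 1 each H. lar, H. muelleri and H. pileatus. The labels give blood as the tissue and name no treatment or age, and no source used here says whether any of the animals are related. A site was kept if at least 1 of these 8 animals carried it, and a missing call counted as not carried. This left 4553 of the 5490 sites, and the other 937 were carried by none of the 8.

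Because the 3 Hoolock animals are of 1 species and the 5 Hylobates animals of several, a difference between genera cannot be told apart from a difference in the number of species sampled. The table lists a site only where at least 2 of the 23 animals carry it. An insertion found in a single animal of a genus is therefore seen only if another animal of the study shares it.

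LAVA elements do not encode their own enzymes and are copied through an RNA by the proteins of L1 elements. Reverse transcription of such elements starts at the 3′ end of the RNA, and a copy that stops early lacks its 5′ part. A short insertion with an intact 3′ end is the usual trace of such a stop. Retrotransposons in the introns of many mammals are found less often in the sense orientation of a host gene than in the antisense one. A shared insertion at one position is commonly read as inherited from a common ancestor, because independent insertions at the same base are rare.

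The sites have 2 forms that were kept apart throughout. At 3468 sites, called single-base sites here, the position is a single base. At 1085 sites, called interval sites here, the position spans a stretch as long as the element. How the authors found either form was not stated. All 3468 single-base sites end at position 1838 or 1839 of the LAVA consensus, the 3′ end, so their length and the place where they start on the consensus carry the same information. At all 3468 the deposited length equals consensus end minus start. How the authors obtained these values was not stated, so the lengths given here are positions on the consensus. Of the 1085 interval sites, 199 are longer than the consensus, and none is shorter than 540 bp. All 1085 also had a carrier in Nomascus or Symphalangus, while 2170 of the 3468 single-base sites (62.6%) had none there. The interval form thus held no site confined to Hoolock or to Hylobates, and the 2 forms are not on one scale for separation.

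Of the 8 animals, 2 Hylobates animals stood apart from the others of their genus. H. moloch replicate 1 and H. muelleri replicate 1 had the 2 highest numbers of single-base sites of the Hylobates animals and the 2 lowest numbers of interval sites of all 8. They also shared more with each other than either did with any other animal. The single-base sites that both animals of a pair carried, over those that either carried, came to 0.662 for this pair and to 0.594 for H. moloch replicate 1 with the other animal of its own labelled species. Leaving out both was added as an alternative after the data had been seen.

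Hoolock animals carried more single-base LAVA insertions than Hylobates animals, and the numbers did not overlap. The 3 Hoolock animals carried 1727, 1845 and 1915 single-base sites. The Hylobates animals carried 1025 in H. lar, 1475 and 1262 in the H. moloch pair, 1435 in H. muelleri and 992 in H. pileatus. The lowest Hoolock animal was thus above the highest Hylobates animal. The means were 1829 ± 95.02 in Hoolock (SD, n = 3) and 1238 ± 224 in Hylobates (SD, n = 5), a difference of 591 sites. An exact two-sided permutation test over the 56 assignments of the 8 animals gave p = 0.0179, the smallest it can give, and 0.0223 after Benjamini-Hochberg adjustment over 10 measures. Without H. muelleri replicate 1 alone the difference was 640.5 sites and the adjusted exact permutation p 0.0714. Without both it and H. moloch replicate 1 the difference was 736 sites, at the smallest exact permutation p that 3 against 3 animals allow, 0.1.

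Interval sites, all of which also had a carrier outside the 2 genera, showed no such difference. The Hoolock animals carried 982, 984 and 967 of them. The Hylobates animals carried 1005 in H. lar, 936 and 997 in H. moloch, 939 in H. muelleri and 1003 in H. pileatus, so that the Hoolock values lay inside the Hylobates range. The means were 978 ± 9.29 in Hoolock (SD, n = 3) and 976 ± 35.3 in Hylobates (SD, n = 5), with an exact permutation p of 0.982 after adjustment over 5 measures. The direction of this difference depends on the 2 Hylobates animals that stood apart. Without them Hoolock animals carried 24 fewer interval sites on average than the 3 remaining Hylobates animals.

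Missing calls were not evenly spread. Among the single-base sites, the Hoolock animals had 116, 35 and 26 missing calls, against 73 in H. lar, 17 and 46 in H. moloch, 17 in H. muelleri and 59 in H. pileatus. Replicate 1, the Hoolock animal with the most missing calls, carried the fewest sites of the 3, and in Hylobates the 2 animals with the fewest missing calls carried the most. When every site with a missing call was left out, the difference in single-base sites was 601, with a mean of 1738 in Hoolock and 1137 in Hylobates. The depth of each library is unknown, and its part in these numbers was not tested.

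**Figure D1:**
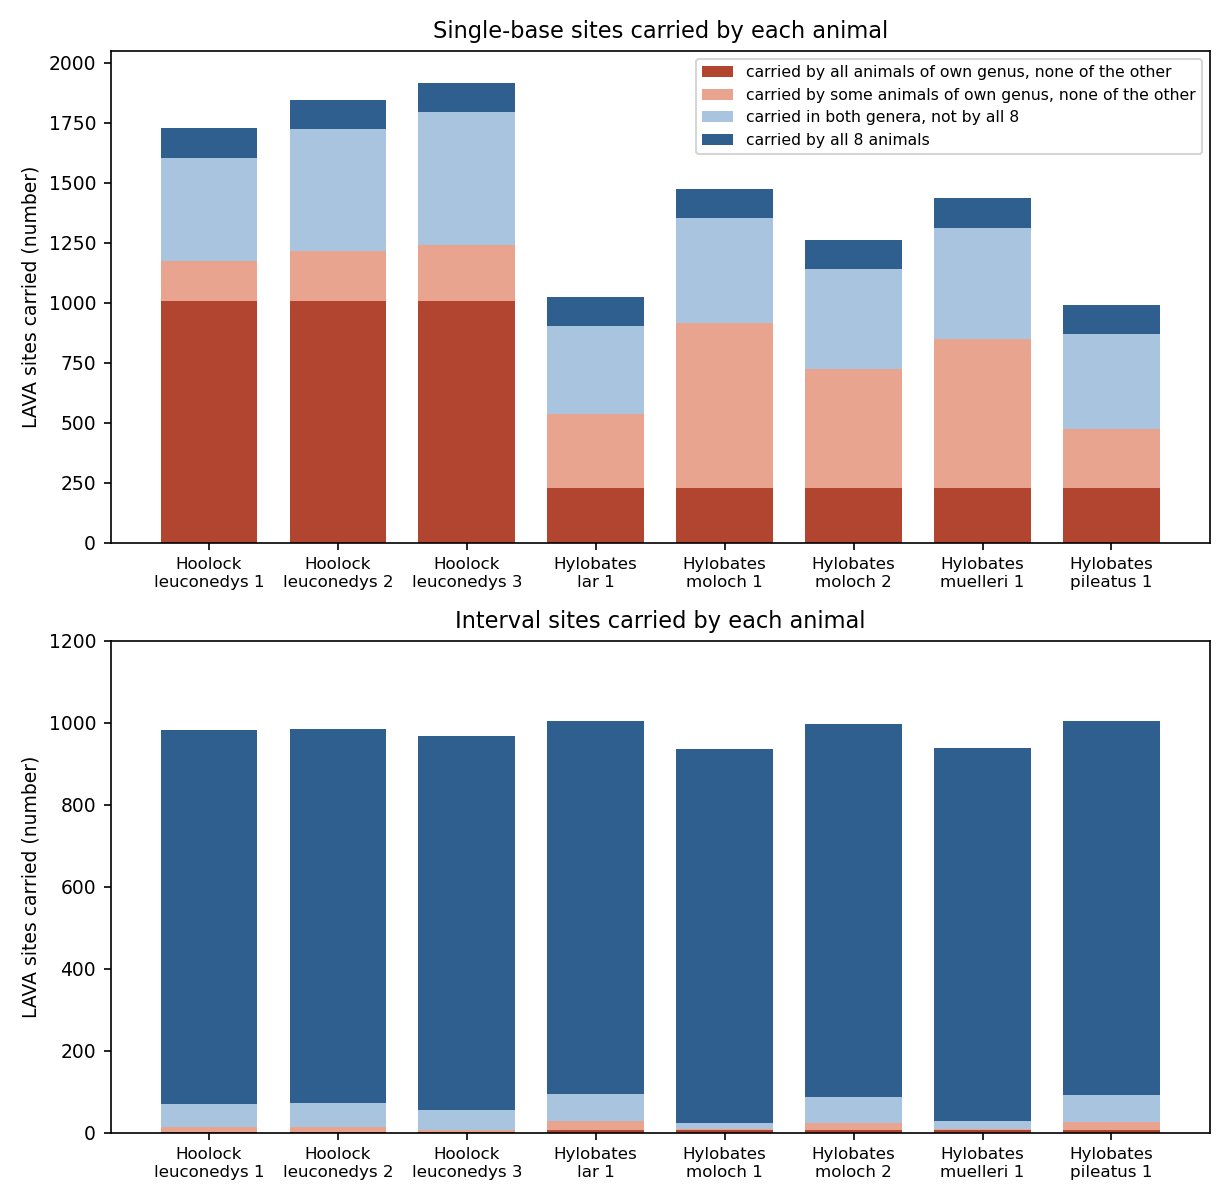
Stacked bars show the number of LAVA sites that each of the 8 animals carried, for single-base sites (upper panel) and interval sites (lower panel), split by which animals shared the site. In the Hoolock animals the 1009 sites carried by all 3 and by no Hylobates animal are the largest block of the single-base bars, while the 911 interval sites carried by all 8 animals fill most of each interval bar.

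Many insertions set the genera apart completely, and most of these were of Hoolock. Of the 3468 single-base sites, 1009 (29.1%) were carried by all 3 Hoolock animals and by no Hylobates animal. Only 229 (6.60%) were carried by all 5 Hylobates animals and by no Hoolock animal. These are called Hoolock-separated and Hylobates-separated sites below. A site had to be shared by 5 animals of several species to be Hylobates-separated and by 3 animals of 1 species to be Hoolock-separated, so the sizes of the 2 sets are not on one scale. Without H. moloch replicate 1 and H. muelleri replicate 1, the counts were 1031 and 257. Among the separated sites, 29 of the 1009 had a missing call in a Hylobates animal and 13 of the 229 one in a Hoolock animal.

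The sites of one genus alone were distributed differently over its animals. Hoolock animals alone carried 1359 single-base sites, of which 1009 were in all 3 animals, 252 in 2 and 98 in 1. Hylobates animals alone carried 1198, of which 229 were in all 5 animals, 163 in 4, 258 in 3, 381 in 2 and 167 in 1. Counted at a fixed minimum of 3 carriers, 1009 sites were of Hoolock alone and 650 of Hylobates alone. At a minimum of 2 carriers the counts were 1261 and 1031. The excess of Hoolock over Hylobates sites thus became smaller as fewer carriers were required.

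Of the sites in 2 Hoolock animals alone, 117 were in replicates 2 and 3, 78 in replicates 1 and 3, and 57 in replicates 1 and 2. Within Hylobates, among combinations short of all 5 animals, the combination of both H. moloch animals with the H. muelleri animal held 152 sites, that of H. moloch replicate 1 with H. muelleri 141, and that of the H. moloch pair 104, while the other 8 Hylobates pairs held 7 to 36 each. Of the 252 sites in 2 of the 3 Hoolock animals, 14 had a missing call in the remaining animal, and in 12 of those it was replicate 1. Of the 163 sites in 4 of the 5 Hylobates animals, 14 had a missing call in the remaining one.

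**Figure D2:**
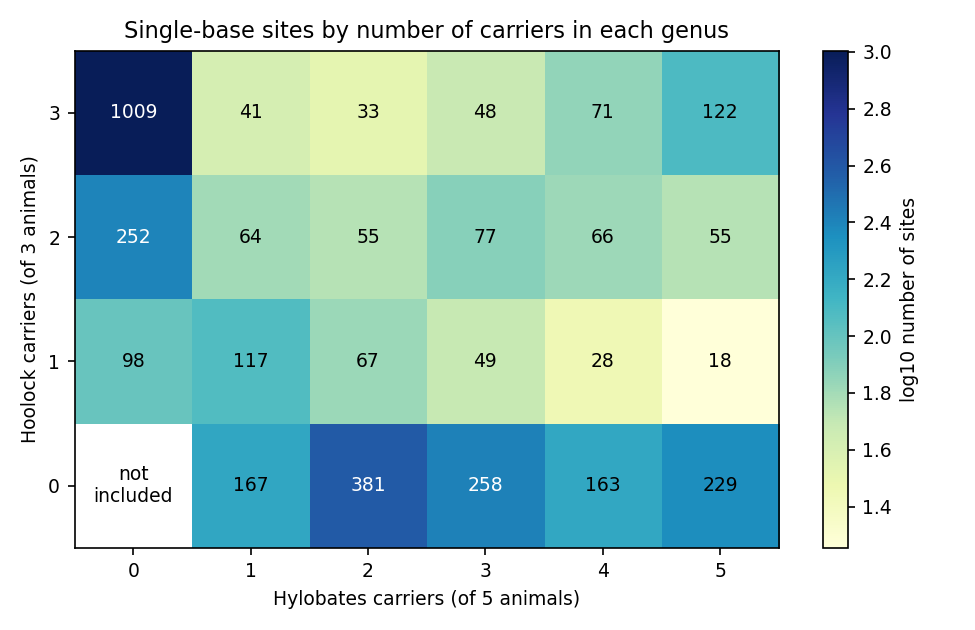
Each cell gives the number of single-base sites carried by the stated number of Hoolock animals (vertical axis, of 3) and of Hylobates animals (horizontal axis, of 5), shaded by the log10 of that number. The cell of 3 Hoolock and 0 Hylobates carriers holds 1009 sites, the cell of 0 and 5 holds 229, and the cell of 3 and 5 holds 122.

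The other single-base sites, 911 in all, were carried in both genera, and 122 of these by all 8 animals. The share of an animal's single-base sites that also occurred in the other genus was 32.1%, 34.2% and 35.1% in the Hoolock animals. It was 47.8% in H. lar, 37.8% and 42.6% in H. moloch, 40.8% in H. muelleri and 52.3% in H. pileatus, above all 3 Hoolock values. A Hoolock animal's sites were looked for in 5 animals and a Hylobates animal's in 3, so the 2 sets of shares were not taken over the same number of animals.

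Pairs of animals were compared by the sites that both carried over those that either carried. For single-base sites this ratio averaged 0.148 over the 15 pairs of a Hoolock with a Hylobates animal, with a range of 0.130 to 0.175. It averaged 0.706 over the 3 pairs within Hoolock and 0.480 over the 10 pairs within Hylobates, where it ranged from 0.409 to 0.662. For interval sites it averaged 0.923 between the genera, and 0.935 within either one. The pairs share animals, so the ratios are given as a description.

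At the level of single sites, no site could be called. A two-sided Fisher's exact test of carriers in 3 Hoolock against 5 Hylobates animals, adjusted over all 5490 sites, called 0 (0%) at an adjusted p under 0.05. There were 1247 sites at an unadjusted p under 0.05, of which 1012 had more Hoolock and 235 more Hylobates carriers. All 1247 were completely separated, since the smallest p of 0.0179 is reached only there and the next possible p is 0.107. The smallest adjusted p was 0.0786, with a range of 0.0504 to 0.199 over 12 alternatives. In simulated calls for the same 8 animals, 0 of 200 separated sites among 5490 were called, and all 2200 of 2200 were called when that many were separated. Every separated site has the same p, so the number of separated sites fixes whether all or none are called. Neither simulated number matches the 1247 seen here, and the absence of calls says nothing about any single site.

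Over all single-base sites that an animal carried, insertions were longer in Hoolock than in Hylobates animals. Completely separated sites did not show this, with medians of 1372 bp in the Hoolock set and 1380 bp in the Hylobates set. The median length of the single-base sites carried by the Hoolock animals was 1353, 1352 and 1351 bp. It was 595 bp in H. lar, 618 and 757 bp in H. moloch, 551 bp in H. muelleri and 720 bp in H. pileatus, well under every Hoolock value. The exact permutation test gave p = 0.0223 after adjustment, for a difference in means of 704 bp. The lengths fall into several peaks, as the plot of lengths shows, and a median that lies between peaks moves far when their shares change.

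Near-complete copies, of 1800 bp or more, made up 25.9%, 25.5% and 25.3% of the single-base sites of the Hoolock animals. They made up 15.7% in H. lar, 15.1% and 15.8% in H. moloch, 14.1% in H. muelleri and 15.2% in H. pileatus. All Hoolock values were higher than all Hylobates values, with means of 25.6% ± 0.306 (SD, n = 3) and 15.2% ± 0.670 (SD, n = 5), and the exact permutation p was 0.0223 after adjustment. Each Hoolock animal carried the same 1009 Hoolock-separated sites and the same 122 sites of all 8 animals. Values of animals of 1 genus thus rest in part on the same loci, in every measure over the sites carried. The SDs and the tests do not allow for this.

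Short copies, under 540 bp, showed the opposite order. They made up 28.1%, 29.3% and 29.7% of the single-base sites of the Hoolock animals, against 48.4% in H. lar, 48.5% and 46.7% in H. moloch, 49.5% in H. muelleri and 46.8% in H. pileatus. The means were 29.02% ± 0.789 in Hoolock (SD, n = 3) and 47.99% ± 1.24 in Hylobates (SD, n = 5), with the same adjusted exact permutation p of 0.0223. When these short copies were left out the median length was 1626 bp in both genera, so the difference in medians rests on them. The excess of near-complete copies was smaller there but remained past the threshold, at 36.0% in Hoolock and 29.2% in Hylobates, with an adjusted exact permutation p of 0.0446.

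**Figure D3:**
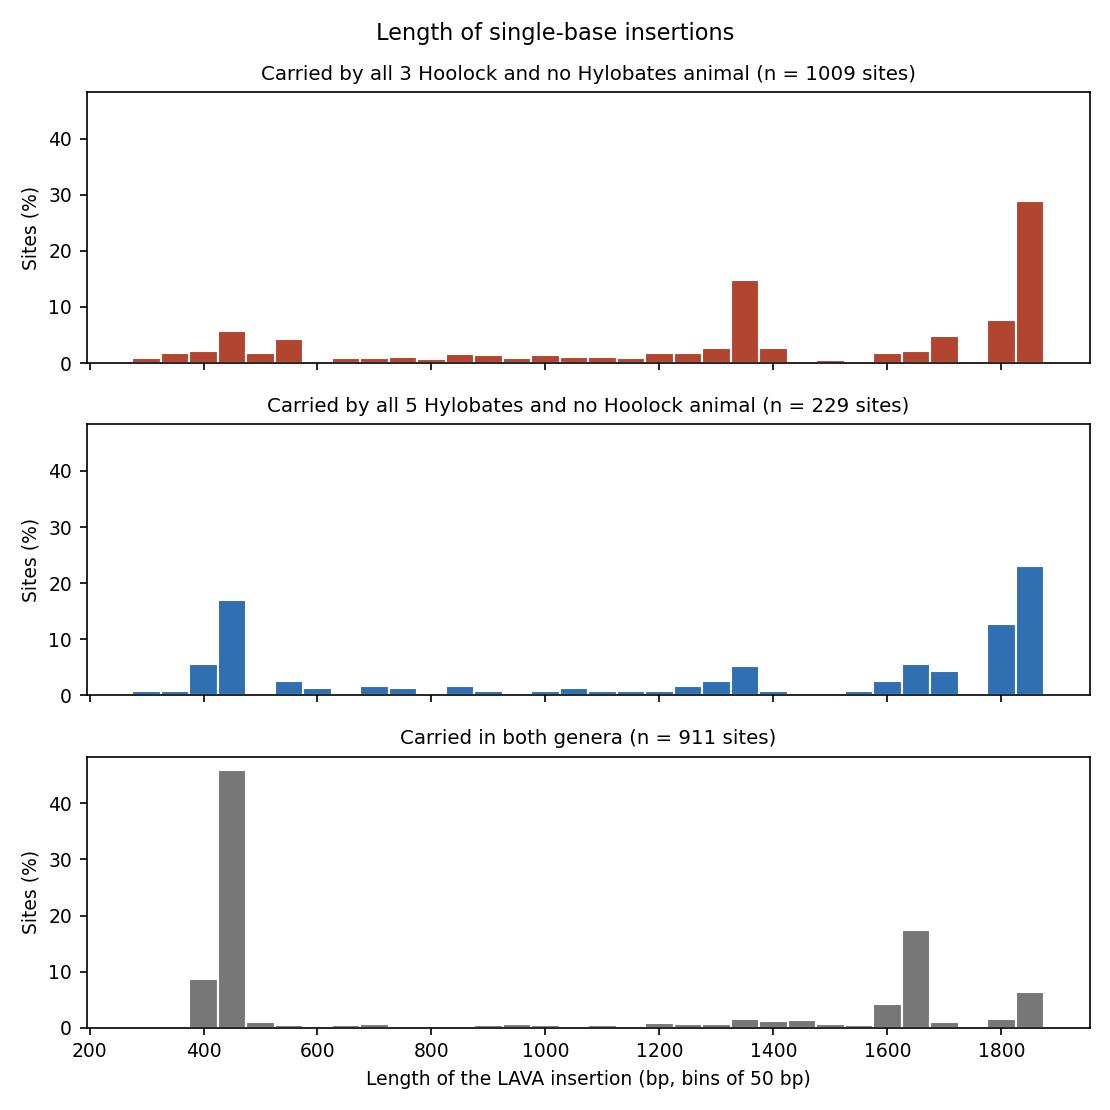
Bars give the share (%) of single-base sites per 50 bp class of length for the 1009 Hoolock-separated sites, the 229 Hylobates-separated sites and the 911 sites carried in both genera. The class that starts at 1325 bp holds 14.9% of Hoolock-separated and 5.24% of Hylobates-separated sites, and the class that starts at 425 bp holds 5.65% and 17.0%.

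Sites carried in both genera are the same loci in each, so the comparison was repeated on each animal's sites that no animal of the other genus carried. The filter was unequal. A Hoolock animal's site was left out on a carrier among 5 animals, and a Hylobates animal's on one among 3. Short copies made up 56.2% of the 911 sites carried in both genera. What the unequal filter adds to the differences below was not tested. The Hoolock animals then had 1173, 1214 and 1242 sites. The Hylobates animals had 535 in H. lar, 918 and 724 in H. moloch, 850 in H. muelleri and 473 in H. pileatus, again all fewer than any Hoolock animal, and the adjusted exact permutation p was 0.0298. The same 1009 sites were among those of every Hoolock animal, and the same 229 among those of every Hylobates animal. The values of animals of 1 genus thus rest in part on the same loci, most of all in Hoolock. Their SDs and the test do not allow for this. Near-complete copies made up 34.6%, 34.4% and 34.5% of these sites in Hoolock. They made up 22.8% in H. lar, 19.9% and 22.2% in H. moloch, 19.3% in H. muelleri and 22.8% in H. pileatus. Short copies averaged 15.9% ± 0.416 in Hoolock (SD, n = 3) and 40.8% ± 2.88 in Hylobates (SD, n = 5), and both shares differed with an adjusted exact permutation p of 0.0298. The median length was 1369 to 1372 bp in Hoolock and 903 to 1239 bp in Hylobates, values that did not overlap but missed the threshold in the test of means, with an adjusted exact permutation p of 0.0893. With 1 Hylobates animal fewer the test has fewer assignments, and without H. lar or without H. pileatus the number of sites and the shares of near-complete and short copies had an adjusted exact permutation p of 0.0571, at differences of 482 to 492 sites, 13.0 to 13.1 points and -24.9 to -24.7 points.

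The deposited start of a copy on the consensus gives the positions that lie behind each peak of length. Of the 1009 Hoolock-separated sites, 36.3% began within the first 50 positions (0 to 49) of the consensus, and so did 34.9% of the 229 Hylobates-separated sites. Starts at positions 450 to 499, which give the peak of about 1350 bp, made up 15.6% of Hoolock-separated sites (95% exact Clopper-Pearson interval 13.4% to 17.9%) and 6.11% of Hylobates-separated sites (3.38% to 10.04%). Starts at 1350 to 1449, which give the short peak, made up 8.13% of Hoolock-separated sites (6.52% to 9.99%) and 21.4% of Hylobates-separated sites (16.3% to 27.3%). These intervals cover counting error over sites only, and sites are not replicates of a genus. The start classes lie at peaks of these same data, so the intervals are no test of classes fixed without them.

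Sites of both genera differed from the completely separated sites in where they start. Starts at 200 to 249, copies about 200 bp short of full length, held 2.87% of Hoolock-separated and 5.68% of Hylobates-separated sites, against 20.97% of the 911 sites carried in both genera. Starts at 1350 to 1449 made up another 53.8% of the sites of both genera. Partly shared sites of 1 genus alone lay nearer to the sites of both genera, with 13.7% of the 350 in Hoolock and 16.3% of the 969 in Hylobates at 200 to 249, and 32.3% in Hoolock and 46.7% in Hylobates at 1350 to 1449. Near-complete copies were 35.8% of Hoolock-separated and 32.8% of Hylobates-separated sites, against 7.57% of the sites of both genera. Completely separated sites of the 2 genera thus held near-complete copies in like shares, with overlapping intervals of 32.8% to 38.8% in Hoolock and 26.7% to 39.2% in Hylobates.

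Partly shared sites of one genus were shorter than those that all its animals carried. Near-complete copies made up 25.4% of the 350 sites in 1 or 2 Hoolock animals alone and 14.3% of the 969 sites in 1 to 4 Hylobates animals alone. Short copies made up 34.9% and 49.7% of the same sets. Of these, the 98 sites in 1 Hoolock animal and the 167 in 1 Hylobates animal are listed only because Nomascus or Symphalangus also carried them. No carrier there was found at 62.6% and 65.6% of the partly shared sites, against 94.0% and 83.8% of those in all animals. What this listing rule adds to the contrast in length was not tested.

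The share of a genus's own sites that all its animals carried varied with length in both genera. Sites in 1 animal alone enter these shares only if Nomascus or Symphalangus also carried them. The part of this listing rule was not tested. Among sites of Hoolock alone, all 3 animals carried 51.4% of the 251 sites under 540 bp, 87.1% of the 249 sites of 540 to 1299 bp and 80.2% of the 450 sites of 1800 bp or more. Among sites of Hylobates alone, all 5 animals carried 10.6% of 539, 34.4% of 125 and 35.05% of 214 sites in the same classes. Copies of 1600 to 1699 bp broke the order in both genera, with 55.9% of 143 in Hoolock and 11.5% of 200 in Hylobates. In the small class of 1400 to 1599 bp the shares were 71.9% of 32 sites in Hoolock and 6.06% of 33 in Hylobates. Of sites under 540 bp, 6 of 251 in Hoolock and 29 of 539 in Hylobates had a missing call in the genus, and the part of missing calls in this pattern was not tested.

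**Figure D4:**
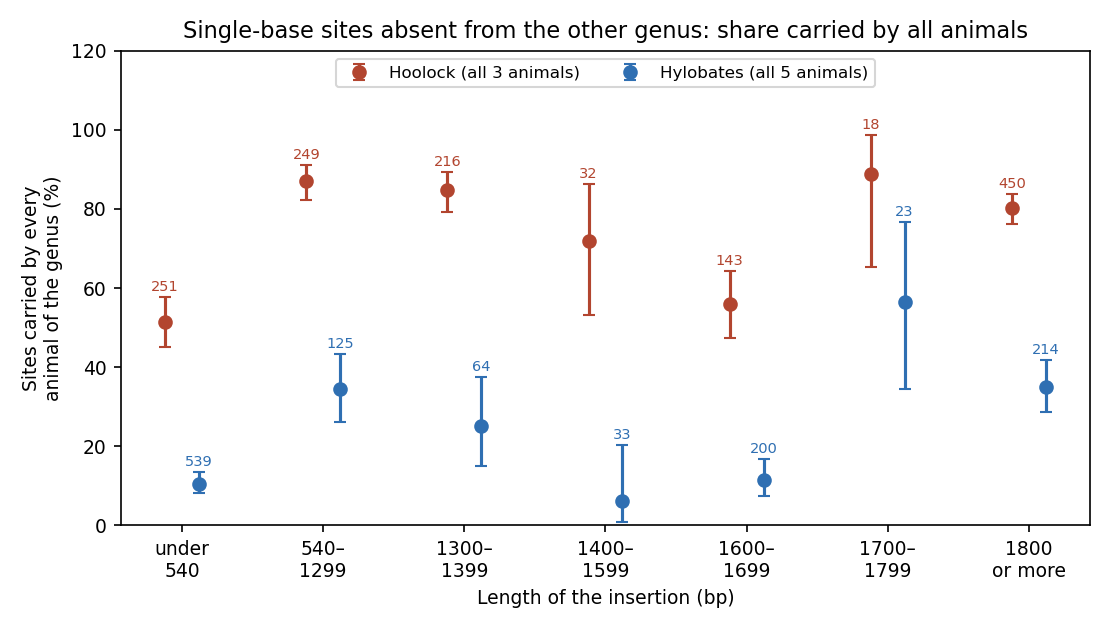
Points give the share (%) of single-base sites of one genus alone that every animal of that genus carried, by length class of the insertion (bp), with exact 95% Clopper-Pearson intervals and the number of sites above each. Both genera have lower shares under 540 bp and at 1600 to 1699 bp than at 1800 bp or more, the lowest Hylobates share of 6.06% is at 1400 to 1599 bp, and Hoolock lies above Hylobates in all 7 classes, with 3 animals against 5.

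The place of the insertions relative to genes differed little. Sites in gene bodies, which here are introns, exons and untranslated regions, made up 49.7%, 50.3% and 51.1% of the single-base sites of the Hoolock animals. They made up 50.9% in H. lar, 51.3% and 51.3% in H. moloch, 51.9% in H. muelleri and 52.6% in H. pileatus. The ranges overlapped, and the difference missed the threshold with an adjusted exact permutation p of 0.0794. It passed when sites with a missing call were left out or promoter sites were counted as in genes, both with an adjusted exact permutation p of 0.0198, and, at 0.0317, when the H. lar animal was left out.

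Intergenic sites were a larger share in Hoolock. They made up 44.9%, 44.1% and 43.2% of the single-base sites in the Hoolock animals. They made up 42.1% in H. lar, 41.3% and 42.3% in H. moloch, 41.0% in H. muelleri and 40.9% in H. pileatus, all lower. The difference of 2.55 percentage points had an adjusted exact permutation p of 0.0223. Sites in the deposited terminator class, whose distance from a gene was not stated, averaged 2.80% in Hoolock and 3.97% in Hylobates, with the same adjusted exact permutation p. Promoter sites averaged 2.75% in Hoolock and 2.89% in Hylobates, which missed the threshold at an adjusted exact permutation p of 0.375.

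Orientation in introns also differed. An insertion is in sense if the element is read in the direction of the host gene. Of intronic single-base sites, 39.9%, 39.5% and 41.0% were in sense in the Hoolock animals. The values were 47.2% in H. lar, 44.3% and 45.9% in H. moloch, 44.7% in H. muelleri and 44.3% in H. pileatus. No Hoolock value reached the lowest Hylobates value, and the means of 40.1% ± 0.743 in Hoolock (SD, n = 3) and 45.3% ± 1.25 in Hylobates (SD, n = 5) gave an adjusted exact permutation p of 0.0223.

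On sites absent from the other genus the gap was wider. The sense share was 35.6%, 34.5% and 36.3% in the Hoolock animals, against 43.9% in H. lar, 42.5% and 44.3% in H. moloch, 42.7% in H. muelleri and 41.6% in H. pileatus. A Hoolock animal's site was left out on a carrier among 5 animals, and a Hylobates animal's on one among 3. The part of this unequal filter in the gap was not tested. The difference of -7.55 percentage points had an adjusted exact permutation p of 0.0298, which was 0.0571 without H. lar, at -6.75 points, or without H. pileatus, at -7.29 points. Without the 2 Hylobates animals that stood apart it was -7.61 points, with an exact permutation p of 0.1. On the same sites the terminator class averaged 2.34% in Hoolock and 4.02% in Hylobates, with an adjusted exact permutation p of 0.0298, and gene bodies 49.2% and 50.1%, with one of 0.179.

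**Figure D5:**
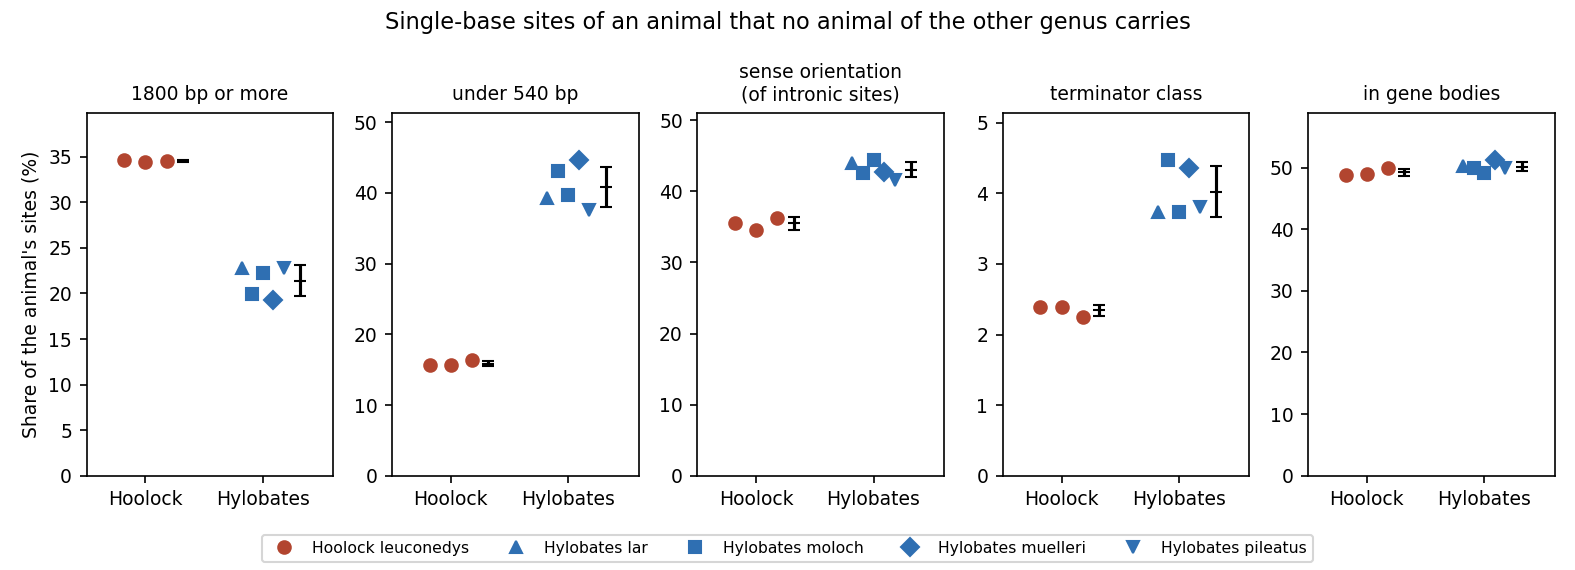
Points give the share (%) of 1 animal's single-base sites absent from the other genus that are of 1800 bp or more, under 540 bp, in sense (of intronic sites), in the terminator class or in gene bodies, with the mean and SD of each genus beside them (n = 3 Hoolock and 5 Hylobates animals). The genera lie apart in the first 4 panels and overlap for gene bodies, at 48.8% to 49.9% in Hoolock and 49.2% to 51.2% in Hylobates.

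The sense share also varied with length inside the Hoolock-separated set. Among 480 intronic Hoolock-separated sites 165 were in sense (34.4%, Clopper-Pearson 30.1% to 38.8%), against 48 of 111 Hylobates-separated sites (43.2%, 33.9% to 53.0%). By length, 37.9% of the intronic Hoolock-separated sites of 1800 bp or more were in sense, 28.8% of those of 540 to 1799 bp and 46.6% of those under 540 bp. The Hylobates-separated sites had 41.0%, 41.3% and 50% in the same classes, and sites of both genera 48.6%, 45.8% and 50%. The lowest share was thus that of Hoolock-separated copies of intermediate length, 69 of 240. For intergenic sites, where no gene gives an orientation, the element lay on the plus strand at 49.7% of Hoolock-separated and 53.3% of Hylobates-separated sites.

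At interval sites none of the 5 measures passed the threshold. The median length was 1288, 1284 and 1292 bp in the Hoolock animals, against 1282 bp in H. lar, 1297 and 1288 bp in H. moloch, 1293 bp in H. muelleri and 1278 bp in H. pileatus. The sense share of intronic interval sites was 26.1%, 26.25% and 26.8% in Hoolock and 25.4% to 26.6% in Hylobates. Adjusted exact permutation p-values ranged from 0.670 to 0.982. All 8 animals shared 911 of the 1085 interval sites, so these measures were taken over nearly the same loci in each animal.

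Complete separation was rare among interval sites. Every interval site had a carrier outside the 2 genera, so none confined to Hoolock or to Hylobates could appear here. Of 1085, 3 (0.276%) were Hoolock-separated and 6 (0.553%) were Hylobates-separated. The counts moved with single animals, with 6 Hoolock-separated sites without Hoolock replicate 3 and 5 without H. moloch replicate 2, and 11 Hylobates-separated sites without Hoolock replicate 1. All 9 are named here after their values were seen. The Hoolock-separated ones lay in introns of ZNF415 and ZNF180, which encode zinc finger proteins, and of DENND2C, which encodes a DENN-domain protein. The Hylobates-separated ones lay in introns of NRG1, which encodes the growth factor neuregulin, of KCNK13, which encodes a potassium channel, and of FAM230C, in the promoter class of the autophagy protease gene ATG4C, and in 2 intergenic places. At 2 of the 3 and 4 of the 6 sites, all 15 animals of the other genera carried the element as well, so the genus without it was the exception there. No single-base site had that pattern.

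The separated single-base sites were mostly absent from the rest of the series. None of the 15 Nomascus and Symphalangus animals carried 948 of the 1009 Hoolock-separated sites (94.0%) or 192 of the 229 Hylobates-separated sites (83.8%). Of the remainder, Symphalangus alone shared 47 and 28, Nomascus alone 8 and 3, and both shared 6 and 6, in Hoolock-separated and Hylobates-separated sites. By contrast, 175 of the 911 single-base sites carried in both genera (19.2%) had no carrier outside them.

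They were spread over the genome. Hoolock-separated sites numbered between 11 and 58 on each of the 26 chromosomes, with a median of 38, and Hylobates-separated sites between 0 and 16, with a median of 9. On all 26 chromosomes there were more Hoolock-separated sites. Among single-base sites with no other such site between them, the closest Hoolock-separated and Hylobates-separated pair lay 8131 bp apart. A single pair of single-base sites lay within 100 bp of each other, in NEMF.

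In gene bodies, 491 of 1756 single-base sites (28.0%) were Hoolock-separated and 113 (6.44%) Hylobates-separated, shares close to those over all single-base sites. They carried 472 and 111 gene names. Positions below are those of the deposited table, for which no genome build is stated.

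No single-base site, separated or not, lay in an exon outside the untranslated regions. In untranslated regions there were 11 Hoolock-separated (1.09% of 1009) and 2 Hylobates-separated sites (0.873% of 229). Over all 3468 single-base sites the share was 1.12%, close to both. Those of Hoolock included a near-complete copy of 1837 bp in sense in the 3′ untranslated region of PXDNL, a peroxidasin-like gene, on chromosome 16 at position 42224109. A copy of 1239 bp in sense lay in that of DEFB132, a beta-defensin gene, on chromosome 13 at 33760937. A copy of 354 bp in antisense lay in that of VSIG10, an immunoglobulin-domain gene, on chromosome 10 at 92004932. Those of Hylobates were a near-complete copy of 1838 bp in sense in the 3′ untranslated region of the kinase gene CDKL1, on chromosome 1a at 82234958, and a copy of 377 bp in that of GAS1RR.

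The promoter class held 100 of all single-base sites (2.88%), and 54 of these were in sense. Of them, 26 were Hoolock-separated (2.58% of 1009), 17 in sense, and 3 Hylobates-separated (1.31% of 229), all in sense. The Hylobates ones included a copy of 742 bp at EPS15L1, an endocytosis gene, on chromosome 10 at 58126908. Separated terminator sites numbered 23 in Hoolock (2.28%) and 8 in Hylobates (3.49%), against 3.40% of all single-base sites. None of the untranslated or promoter sites just named with a position was carried by any of the 15 other animals.

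The gene lists were read against the background of 28.0% Hoolock-separated and 6.44% Hylobates-separated sites in gene bodies, and the lists were chosen with earlier results of these data known. In the list of cohesin and condensin genes, 9 of 36 members held a site, and of 8 single-base sites 0 were Hoolock-separated and 1 Hylobates-separated. That one lay in NSMCE2, a SUMO ligase of the SMC5/6 complex, as an antisense copy of 1604 bp. In the list of spindle, kinetochore and mitotic exit genes, 13 of 76 members held a site, and of 13 single-base sites 0 were Hoolock-separated and 2 Hylobates-separated. They lay in PMF1, a kinetochore gene, as a copy of 1821 bp, and in CLASP2, a gene for a microtubule plus-end protein, as a copy of 463 bp.

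The DNA repair list had 125 members, of which 14 held a site. Of its 10 single-base sites 1 was Hoolock-separated, a copy of 1837 bp in POLN, a DNA polymerase gene. Another was Hylobates-separated, a sense copy of 1833 bp in MRE11, a nuclease gene of double-strand break repair. In the germline, meiosis and transposon silencing list, 6 of 74 members held a site, and the list had only 5 single-base sites. Its 2 Hoolock-separated sites both lay in MORC1, which in mouse is needed to silence transposons in male germ cells. They were an antisense copy of 1356 bp on chromosome 21 at 12496106 and a sense copy of 1838 bp at 12564098, and both Symphalangus animals also carried the second. Its Hylobates-separated site was a copy of 390 bp in SAMHD1, a dNTP hydrolase gene that restricts retroelements, which 7 of the 15 other animals carried too.

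Cilium and centrosome genes had 20 of 107 members with a site. Of 18 single-base sites, 7 (38.9%) were Hoolock-separated and 0 Hylobates-separated. They included sites in CDK5RAP2, IFT81, KIZ, DNAH8, CFAP70 and CEP112, of which that in KIZ was in sense and the others in antisense. The copy in IFT81, an intraflagellar transport gene, was 1832 bp long, and that in DNAH8, an axonemal dynein gene, 1341 bp. In the list of microtubule motors and severing genes 12 of 78 members held a site, with 3 of 9 single-base sites Hoolock-separated, in the dynactin gene DCTN5, the kinesin gene KIF13A and the microtubule minus-end gene CAMSAP1. All 3 were in antisense and 0 were Hylobates-separated.

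The list of very long neuronal and fragile-site genes held the most sites. Of its 84 members 37 had one, and of 57 single-base sites 19 (33.3%) in 18 genes were Hoolock-separated and 0 were Hylobates-separated. EXOC6B, an exocyst gene, held 2 of them on chromosome 14, a sense copy of 1833 bp at 40897990 and an antisense copy of 1837 bp at 41236230. A further 2 single-base sites in EXOC6B were carried by 2 Hylobates animals each and by no Hoolock animal. Others lay in DCC, a netrin receptor gene, with a sense copy of 1837 bp, in AUTS2 with an antisense copy of 1838 bp, and in the synaptic scaffold gene DLG2 with one of 452 bp. Hylobates animals alone carried 16 of the 57 sites, none of them in all 5 animals.

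Among chromatin regulators 27 of 134 members held a site. Of 23 single-base sites 6 (26.1%) were Hoolock-separated, among them those in INO80D, PBRM1, SETD7, NSD3 and MLLT10. A further 3 (13.0%) were Hylobates-separated, in BPTF, BAZ1B and NSD1. The histone methyltransferase genes NSD3 and NSD1 thus each held a separated site, of 720 bp in Hoolock and of 422 bp in Hylobates. Genes of ubiquitin ligases and proteases had 34 of 161 members with a site, and of 39 single-base sites 12 (30.8%) were Hoolock-separated and 5 (12.8%) Hylobates-separated. With so few sites a list, none of these shares was tested, and a share near the background is no result about a list.

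In 3 genes each genus had its own separated insertion. BIRC6, which encodes a large ubiquitin-conjugating inhibitor of apoptosis, held a Hoolock-separated copy of 1837 bp at 57851440 and a Hylobates-separated copy of 1836 bp at 57884911 on chromosome 19, both antisense. HERC3, a ubiquitin ligase gene on chromosome 9, held a Hoolock-separated copy of 1302 bp at 73628149 and a Hylobates-separated copy of 1805 bp at 73474902, both in sense. NCOA3, a nuclear receptor coactivator gene on chromosome 13, held a Hoolock-separated antisense copy of 1694 bp at 17112698 and a Hylobates-separated sense copy of 430 bp at 17154167. None of these 6 copies was carried by an animal of the other genera. Over all genes, 19 names held 2 Hoolock-separated sites and 2 names, TMEM135 and ZNF799, held 2 Hylobates-separated sites. TMEM135 and ZNF799 are named after their values were seen.

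The genes with the most sites carried insertions of mixed sharing. NEMF, a gene of ribosome quality control on chromosome 1a, held 3 interval sites carried by all 8 animals, a Hylobates-separated sense copy of 1827 bp, and the close pair of sense copies, of 1412 and 1599 bp at 81681062 and 81681090, each in 3 Hylobates animals and no Hoolock animal. Whether that pair is 1 insertion was not tested. USP32, a ubiquitin protease gene on chromosome 14, held 5 single-base sites, of which 1, an antisense copy of 1829 bp, was Hylobates-separated and 3 were carried in both genera. NUP210L, a nucleoporin-like gene on chromosome 12, held a Hoolock-separated copy of 1839 bp, the full consensus, and a copy of 1626 bp that 2 Hylobates animals alone carried. FHIT, a gene at a fragile site on chromosome 21, held a Hoolock-separated copy of 452 bp and 2 copies of 462 bp in 3 and 4 Hylobates animals alone.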

How the data were processed

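Gibbon blood DNA was sheared for Illumina genome libraries, per the labels' protocols. BWA is the tool that the submitters' processing notes name. The caller, filters, build, annotation and depth were not stated in any source used. The authors' deposited calls, 1 per site and animal, mark an element as present (1), not present (0) or not called (NA), beside its position, length, place on a LAVA consensus in bp, location class, orientation and gene name, per the file headers. Such calls are of no standard unit and were not normalised.

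Animals were grouped by labelled species and genus, and replicate numbers follow the order of deposit and pair nothing. Each animal was 1 replicate, and 0 columns of calls were left without an animal. Sites were kept where at least 1 of the 8 animals had the element, with NA read as not carried. Measures per animal were compared by their difference in means in an exact permutation test, two-sided, with Benjamini-Hochberg adjustment over 10 measures for single-base and 5 for interval sites, within each set of sites, at an adjusted p of 0.05. Per-site Fisher's exact tests were adjusted over all 5490 sites. Counts of separated sites, sharing and gene lists were described without a test. Shares over sites carry exact 95% Clopper-Pearson intervals where given, which cover counting error only. P-values treat animals as independent and do not allow for loci that animals share. The site test was tested on simulated data. Python 3.11.15, numpy 2.4.6, pandas 2.3.3 and scipy 1.17.1 were used.

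The comparison, the length limits of 540 and 1800 bp and the 9 gene lists (875 entries) were chosen with earlier results of these data known. The classes of consensus start and the other length classes lie around peaks of length in these data and are not independent of them. Named genes were up to 12 per genus with a separated exonic, untranslated or promoter site, up to 8 per list with a separated site, the 10 richest in sites, up to 15 with separated sites of both genera, and up to 8 with such sites carried by all 8 animals, and the text gives a subset of these, besides genes it says were named after their values were seen. Some genes taken by this rule are not reported here. Of 1944 gene names, 1475 were matched in RefSeq's gene table (assembly Asia_NLE_v1), used for names and gene type only. Alternatives covered missing calls, length limits, gene definition, the definition of private sites, adjustment and each animal left out. No element or flanking sequence was used here.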

Additional observations from a re-analysis of the deposited data

How the results depend on the processing

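All values here are differences, Hoolock minus Hylobates, in sites, bp, consensus positions or percentage points, except counts of sites. With 2 against 5 animals the smallest exact permutation p is 0.0476, so leaving out any Hoolock animal ended all 14 calls by construction, while with 3 against 4 it is 0.0286. Without H. lar or H. pileatus 6 calls on sites absent from the other genus ended, and without H. moloch replicate 1 or H. muelleri replicate 1 the call on their intergenic share. Without H. muelleri replicate 1 the calls on the number of single-base sites, over all such sites and over those absent from the other genus, ended too. Without H. moloch replicate 2, also 3 against 4 animals, no call ended. No paired analysis was possible because replicate numbers follow the order of deposit and pair no animals. The depth behind each call is unknown, so no result could be weighted by it, and no single site was called after adjustment.

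Leaving out 1 animal at a time, the results over all single-base sites ranged as follows. Sites carried differed by 529.75 to 650.5, median length by 679.5 to 731 bp and median consensus start by -731.3 to -679.8. Copies of 1800 bp or more differed by 10.09 to 10.51 points, those under 540 bp by -19.29 to -18.52, sites in genes by -1.59 to -0.927, intergenic sites by 2.12 to 2.97, promoters by -0.211 to -0.0618, terminators by -1.26 to -1.05 and the intronic sense share by -5.55 to -4.66. At interval sites the ranges were -8.33 to 8.92 sites, -1.83 to 2.92 bp of length, 2.70 to 7.70 positions of consensus start, 0.0190 to 0.217 points in genes and 0.168 to 0.545 points of sense share, so the direction in number and length depended on the animals.

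Over single-base sites absent from the other genus the ranges were 443.3 to 583.2 sites, 197.8 to 341.4 bp of median length and -341.4 to -198 positions of consensus start. The median length there passed the threshold without H. moloch replicate 1 or H. muelleri replicate 1. Copies of 1800 bp or more differed by 12.09 to 14.12 points, those under 540 bp by -26.76 to -23.57, sites in genes by -1.53 to -0.546, intergenic sites by 2.32 to 3.35, promoters by -0.204 to 0.126, terminators by -1.77 to -1.55 and the sense share by -8.43 to -6.75. At interval sites of that kind, of which an animal had 6 to 29, they were -19.6 to -0.0833 sites, 82.1 to 309.75 bp, -100.75 to 48.75 positions, 2.46 to 33.84 points in genes and 16.22 to 29.79 points of sense share. Hoolock-separated single-base sites numbered 1014 to 1126 and Hylobates-separated ones 231 to 305. Interval ones numbered 3 to 6 and 6 to 11, with 6 Hoolock-separated without Hoolock replicate 3, 5 without H. moloch replicate 2, and 11 Hylobates-separated without Hoolock replicate 1. The number of sites called by Fisher's exact test was 0 to 0.

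Without sites that had a missing call, the share in genes was -1.54 and passed the threshold (adjusted exact permutation p = 0.0198), while for sites absent from the other genus promoters were at -0.0642 and the interval consensus start at -53.03, both reversed. With promoters counted as in genes the share in genes was -1.38 and passed. At 540 bp or more, median length and consensus start differed by 0 and 0, promoters by 0.146 (reversed) and terminators by -1.34 (no longer past the threshold). On sites absent from the other genus, that limit gave -1.40 bp of length, 1.40 positions of consensus start and 0.315 points in genes, all reversed, and 1.42 points of intergenic share, no longer past the threshold. The short copies are what this limit removes. Private sites absent from every animal outside the genus gave 1.94 points of intergenic share, no longer past the threshold, and those with at least 2 carriers an interval consensus start of -6.63, reversed. The cause was not tested. The 1700 bp limit for near-complete copies changed no call of that share.

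Leaving out both H. moloch replicate 1 and H. muelleri replicate 1, chosen after seeing the data, ended every call because 3 against 3 animals allow no exact permutation p under 0.1. The differences were then 736 sites, 661 bp of length, -662 positions of consensus start, 9.97 points of copies of 1800 bp or more, -18.26 of those under 540 bp, 2.28 intergenic, -0.898 in terminators and -5.65 of sense share, and -24 interval sites, reversed. On sites absent from the other genus they were 693 sites, 10.69, -21.43, 1.92, -1.29 and -7.61 points for copies of 1800 bp or more, copies under 540 bp, intergenic, terminator and sense shares.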

Other observations

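The 8 genes taken by rule with a promoter, exonic or untranslated site in all 8 animals were all of the promoter class, and 7 of the 8 were interval sites. Among them was an interval site of 593 bp in sense at PRELID2, on chromosome 2 from 35306909 to 35307501. The single-base one was a copy of 441 bp in sense at SNORA73, a small nucleolar RNA name, on chromosome 3 at 95179644.

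Orientation differed between the forms as well as between the genera. Of 528 intronic interval sites carried by any of the 8 animals, 138 were in sense (26.1%, exact Clopper-Pearson 95% interval 22.4% to 30.1%). The 69 of 240 intronic Hoolock-separated sites of 540 to 1799 bp (28.8%, 23.1% to 34.9%) were the single-base set nearest to that share among the separated and shared sets split by length. The Hylobates-separated sites of the same lengths had 19 of 46 (41.3%, 26.998% to 56.8%). These sets were picked out after their values were seen, and no test was run between them.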
